A study of Homo sapiens with 12 samples.

Results

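The report covers the mRNAs that encode the cap-binding eIF4 factors and the 4E-BPs, which are 10 of the 10830 gene names that carried a peak in 6 RNA immunoprecipitation sequencing (RIP-seq) lists. The members were found by gene name in each list and were EIF4A1, EIF4A2, EIF4B, EIF4E, EIF4G1, EIF4G2, EIF4G3, EIF4H, EIF4EBP1 and EIF4EBP2. Together they held 139 of 101848 peaks. RIP-seq pulls down a protein with an antibody and sequences the RNA that comes with it beside the input RNA. A peak here is a stretch of exons with more RIP than input reads, and its fold enrichment is the ratio of RIP to input as the authors' peak caller gave it.

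All samples came from HepG2 cells, an established line from a human liver cancer. Cells were stably infected with pmiRNA1-3XFlag-METTL16, pSIN4-3XFlag-eIF3a or pSIN4-3XFlag-eIF3b, so each bait was also made from a transgene, and RNA and protein were cross-linked by ultraviolet irradiation. There were 2 RIP samples for each of 3 proteins, with 6 inputs that entered only through the authors' peak calling. METTL16 and eIF3b were pulled down through Flag and eIF3a, as labelled, through an antibody raised against eIF3a, so for eIF3a the antibody and the protein cannot be told apart if the labels are right. The deposited lists, by contrast, are all named for Flag, and the conflict could not be settled here. No list from an IgG pull-down was used here. The lists are called METTL16 1 and 2, eIF3a 1 and 2 and eIF3b 1 and 2 below.

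The products of these mRNAs act at the first step of translation. eIF4E binds the cap at the 5′ end of an mRNA, the eIF4G proteins are scaffolds that join eIF4E to the RNA helicase eIF4A, and eIF4B and eIF4H stimulate that helicase. The 4E-BPs are small proteins that hold eIF4E and keep it from eIF4G, and mTOR kinase releases them by phosphorylation. eIF3, to which eIF3a and eIF3b belong, links the small ribosomal subunit to eIF4G, and METTL16 is a methyltransferase that makes N6-methyladenosine in RNA.

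To show where the lists agreed, stretches of 5 mRNAs under peaks of several lists are given first, from the GRCh38 genome, 5′ to 3′ on the transcript strand with introns removed. Capitals mark the start codon, the stop codon or the letters ACAGAGA. The EIF4G1 stretch, chr3:184321880-184322090 on the plus strand, is 211 coding bases of exon 10 and lay under a peak in all 6 lists. The first EIF4G2 stretch, chr11:10806003-10807295 on the minus strand, runs over exons 2 to 4, from the GTG start codon at transcript base 309 to base 460. All 6 lists shared it from base 340 on, and the GTG lay whole under a peak in METTL16 1 and eIF3b 1 alone. The second EIF4G2 stretch, chr11:10797816-10799023 on the minus strand, runs over exons 21 and 22 to the stop codon and lay under a peak in all 6 lists. The EIF4EBP2 stretch, chr10:70404375-70404404 on the plus strand, is the last 30 of 180 shared bases of exon 1. The EIF4B stretch, chr12:53039273-53039678 on the plus strand, lies in exons 13 and 14 and was shared by the 5 lists with an EIF4B peak. The EIF4A2 stretch, chr3:186787247-186787814 on the plus strand, lies in exons 8 to 10 and was shared by the 3 lists with an EIF4A2 peak.
EIF4G1 exon 10: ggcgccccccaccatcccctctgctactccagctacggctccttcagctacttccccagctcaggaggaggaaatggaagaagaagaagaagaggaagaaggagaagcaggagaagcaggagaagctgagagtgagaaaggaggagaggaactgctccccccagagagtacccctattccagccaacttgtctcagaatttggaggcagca
EIF4G2 exons 2 to 4: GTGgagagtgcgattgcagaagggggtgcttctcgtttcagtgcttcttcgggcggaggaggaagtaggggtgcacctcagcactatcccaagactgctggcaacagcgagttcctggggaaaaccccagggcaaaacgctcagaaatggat
EIF4G2 exons 21 and 22: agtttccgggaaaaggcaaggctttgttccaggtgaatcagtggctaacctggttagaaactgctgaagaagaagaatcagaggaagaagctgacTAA
EIF4EBP2 exon 1: caaagccgagagcccgcgcccacagccATG
EIF4B exons 13 and 14: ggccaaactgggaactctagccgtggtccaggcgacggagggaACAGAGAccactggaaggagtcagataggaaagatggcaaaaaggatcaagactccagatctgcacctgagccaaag
EIF4A2 exons 8 to 10: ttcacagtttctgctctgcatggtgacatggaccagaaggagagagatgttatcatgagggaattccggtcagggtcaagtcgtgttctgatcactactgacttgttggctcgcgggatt

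The lists differed in length, from 12921 to 21733 peaks and from 5226 to 8166 genes, and the read depth behind them is unknown because no counts were used. By bases summed over these mRNAs, eIF3a 2 stood apart. Its member peaks covered 14913 bases, which was 0.317% of all bases under peaks in that list, whereas the other 5 lists gave 4412 to 7298 bases and 0.104% to 0.143%. EIF4EBP2 gave 6549 and EIF4G1 4555 of the 14913 bases. On EIF4G2, by contrast, eIF3a 2 had 272 bases, the fewest of the 6 lists. Among liver marker genes, SERPINA1 and HNF4A carried a peak in all 6 lists and TTR in none, but a peak is enrichment over input and says nothing of expression.

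Most members carried a peak in most lists, with 41 of 60 pairs of member and list occupied. Beside this, 48.3% to 75.4% of all peak-carrying genes had a peak in a given list. METTL16 1 held peaks on 7 of the 10 members, where 53.8% of all peak-carrying genes had a peak in that list, and METTL16 2 held peaks on 8, against 58.5%. eIF3a 1 held peaks on 7, against 75.4%, and eIF3a 2 on 6, against 48.3%. eIF3b 1 held peaks on 7, against 74.5%, and eIF3b 2 on 6, against 69.9%. These backgrounds are the share of all 10830 genes that carried a peak in the list, and eIF3a 1, eIF3b 1 and eIF3b 2 reached no more members than that share would give.

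Each protein had a peak in both replicates on 6 of the 10 members, but not on the same 6. For METTL16 these were EIF4A2, EIF4G1, EIF4G2, EIF4G3, EIF4H and EIF4EBP2, beside 42.6% of all genes. For eIF3a and for eIF3b EIF4B took the place of EIF4A2, beside 42.4% and 60% of all genes. EIF4G1, EIF4G2, EIF4G3, EIF4H and EIF4EBP2 carried a peak in all 6 lists, which is 5 of 10 members where the same rule called 25.2% of all genes. At least 1 base lay under a peak in all 6 lists for 4 members, where 15.9% of all genes had such a base. These were EIF4G1 with 1143 shared bases, EIF4G2 with 242, EIF4EBP2 with 180 and EIF4H with 122, whereas EIF4G3 had none. The counts have no test, since 10 chosen genes are no sample of the rest.

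**Figure D1:**
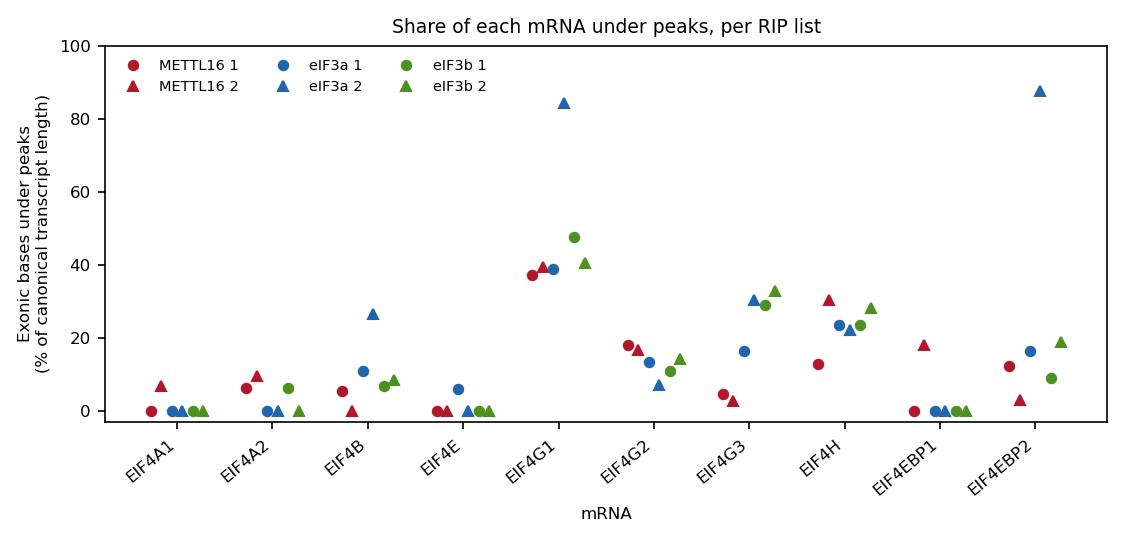
Bases under peaks as a percent of the canonical transcript length (y axis) for each of the 10 mRNAs (x axis), 1 point per RIP list, circles for replicate 1 and triangles for replicate 2. Bases off that transcript, found in 9 of the 139 member peaks, are counted too. In eIF3a 2 peaks covered 84.3% of EIF4G1 and 87.4% of EIF4EBP2, far above the other 5 lists, and EIF4A1, EIF4E and EIF4EBP1 were at 0 in all lists but 1.

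The scaffold EIF4G1 had the most coverage among the members in 5 of the 6 lists, by bases and by share of the transcript. Peaks lay on 2013 bases in METTL16 1, 2129 in METTL16 2, 2100 in eIF3a 1, 4555 in eIF3a 2, 2582 in eIF3b 1 and 2193 in eIF3b 2. Of its 5405-base transcript this was 37.2% to 47.8% in 5 lists and 84.3% in eIF3a 2. The 6 lists together covered 4555 bases, the same number as eIF3a 2 alone, so the EIF4G1 bases of the other 5 lists all lay inside the peaks of eIF3a 2. In that list a single peak of 2936 bases ran over 17 exons, the widest peak on any member.

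The 1143 EIF4G1 bases shared by all 6 lists were coding and lay in exon 10, exons 20 to 22, exons 24 and 25 and exons 29 to 33. In METTL16 1, METTL16 2, eIF3a 1 and eIF3b 1 a peak of 450 to 480 bases starting in exon 10 held the stretch printed above. Its fold enrichment was 3.55, 2.80, 2.71 and 4.43 in that order. In eIF3a 2 the stretch lay in the peak of 2936 bases over exons 10 to 26. The 3.29-fold of that peak is thus not a value for exon 10 alone. In eIF3b 2 exon 10 held separate peaks of 1.34-fold and 2.12-fold. The strongest EIF4G1 p-value was that of exon 10 in eIF3b 1, with a log10 of -330. The peak at the 3′ end of the coding sequence held the stop codon in every list but METTL16 1, where the last peak ended at transcript base 4841 and the coding sequence at base 4960. No list had a peak on EIF4G1 exons 1 to 4. METTL16 2 lacked the peaks over exons 9 and 10 (from base 797 in METTL16 1), exon 12 and exons 16 to 18 that METTL16 1 had.

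EIF4G2, also called DAP5, is an eIF4G relative that lacks the eIF4E binding part and starts at a GTG codon. Its peaks covered 691 bases in METTL16 1, 631 in METTL16 2, 512 in eIF3a 1, 272 in eIF3a 2, 421 in eIF3b 1 and 542 in eIF3b 2. Apart from peaks on exon 1, they fell at the ends of the coding sequence and nowhere between. No list had a peak between transcript base 699 and base 2875. A peak over exons 2 to 4 at the start of the coding sequence was present in all 6 lists (exons 2 to 6 in METTL16 2), with 1.24-fold to 2.14-fold enrichment. It held the start codon itself, from base 309, in METTL16 1 and eIF3b 1 and began at base 310 or 340 in the other 4. A peak over exons 21 and 22 held the stop codon in all 6 lists, with 1.45-fold to 2.51-fold enrichment.

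A further EIF4G2 peak lay on exon 1, in the 5′ UTR, in METTL16 1, METTL16 2, eIF3a 1 and eIF3b 2 and was missing from eIF3a 2 and eIF3b 1. Its fold enrichment was 3.87 in METTL16 1, 16.7 in METTL16 2, 2.25 in eIF3a 1 and 2.85 in eIF3b 2. The value of 16.7 was the highest on any member, although its log10 p-value was only -4.96 and 85 of its 120 bases lay on annotated exons.

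EIF4G3 is a second scaffold that binds eIF4E, with 65.5% of 4465 aligned coding bases the same as in EIF4G1, and had peaks in all lists but at different places. It carried 300 bases under peaks in METTL16 1, 181 in METTL16 2, 1050 in eIF3a 1, 1947 in eIF3a 2, 1861 in eIF3b 1 and 2098 in eIF3b 2. The METTL16 values lay below all 4 eIF3 values. The METTL16 peaks also shared no base between replicates, with coding peaks over exons 12 and 13 and exons 21 and 22 in METTL16 1, and a 61-base peak in exon 1 and a 120-base peak at exon 18 in METTL16 2. The eIF3a lists shared 421 EIF4G3 bases and the eIF3b lists 1173. eIF3b 1 and eIF3b 2 each had a peak in the 3′ UTR, of 2.70-fold and 3.34-fold. In eIF3a 2 a peak of 1256 bases over 10 blocks held the start codon at 7.37-fold.

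**Figure D2:**
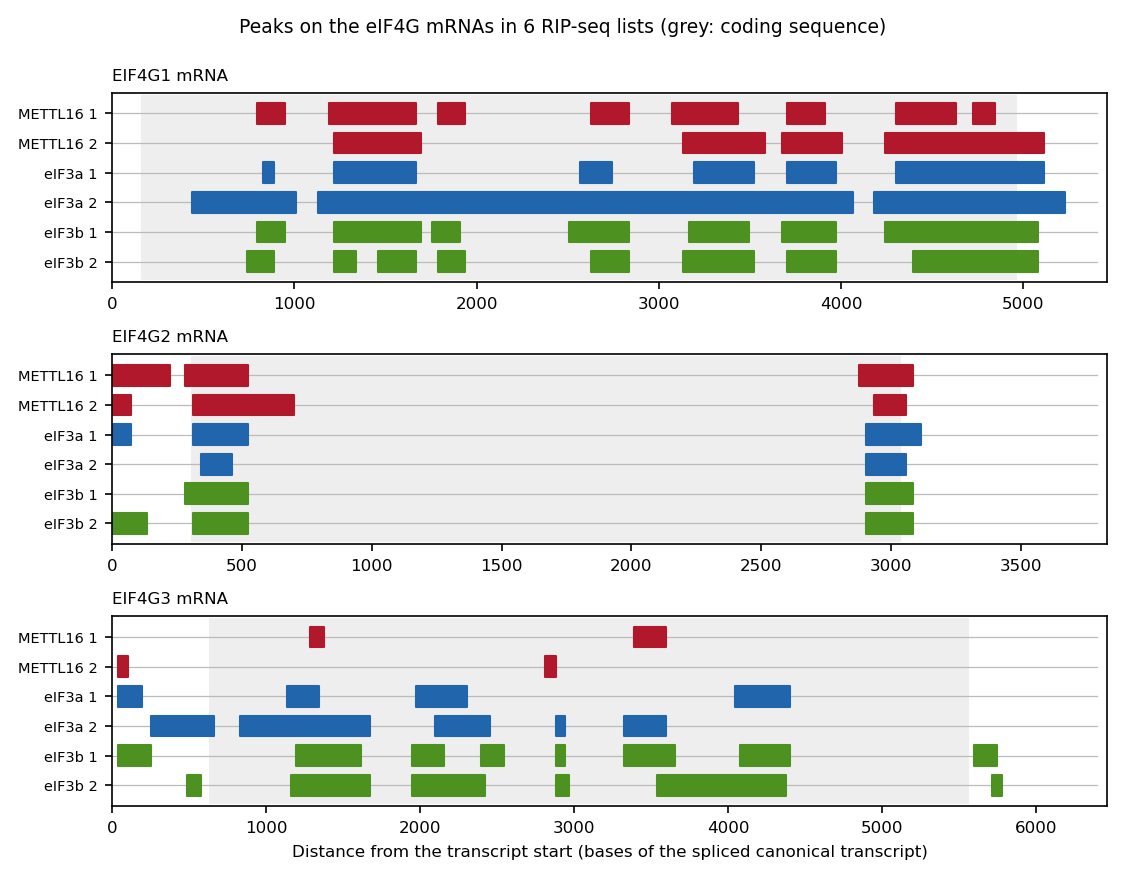
Peaks (coloured blocks) of the 6 RIP lists along the spliced canonical transcripts of EIF4G1, EIF4G2 and EIF4G3, with distance from the transcript start in bases on the x axis and the coding sequence in grey. Apart from blocks on exon 1, EIF4G2 peaks sit at the ends of its coding sequence in all 6 lists. METTL16 has only short EIF4G3 blocks, 300 bases in METTL16 1 and 181 in METTL16 2.

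EIF4EBP2, one of the eIF4E-binding repressors, has a short coding sequence of 363 bases and a 3′ UTR of 6871 bases. A peak on exon 1 over the start codon was present in all 6 lists, and the 180 bases shared by the lists ended with the ATG itself, printed above. Its fold enrichment was 7.56 in METTL16 1, 4.27 in METTL16 2, 2.71 in eIF3a 1, 1.84 in eIF3a 2, 10.3 in eIF3b 1 and 1.57 in eIF3b 2. The eIF3b lists held both the highest and the lowest value. These exon 1 peaks had a GC content of 75.2% to 78.3%, where the mean over all peaks of a list was 53.1% to 60.8%.

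In the rest of EIF4EBP2 the lists parted. Peaks covered 928 bases in METTL16 1, 240 in METTL16 2, 1231 in eIF3a 1, 6549 in eIF3a 2, 691 in eIF3b 1 and 1411 in eIF3b 2. METTL16 2 had the exon 1 peak only, while eIF3a 2 had 6 peaks over 87.4% of the transcript, with the highest fold, 10.2, in a 3′ UTR peak of 2242 bases. Without eIF3a 2 the eIF3a value in bases was still above both METTL16 values, but the mean of 3890 bases rested on that list. As a share of all bases under peaks in a list, the METTL16 and eIF3a values overlapped. EIF4EBP1, a second repressor, had 1 peak, in METTL16 2, of 149 bases over exons 1 and 2 and 1.69-fold enrichment.

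Among the helicase genes, EIF4A2 had a peak over exons 8 to 10 in METTL16 1, METTL16 2 and eIF3b 1 and none in the other 3 lists. The peak had the same first and last base in METTL16 1 and eIF3b 1, at 1.47-fold and 1.23-fold, and began 60 bases earlier in METTL16 2, at 1.54-fold. EIF4A1 carried 1 peak, of 120 bases in exon 8 and 1.10-fold, in METTL16 2. The EIF4A1 and EIF4A2 coding sequences were 77.3% identical over 1217 aligned bases, and the longest run of the EIF4A2 stretch found in the EIF4A1 transcript was 10 bases. GENCODE lists 13 pseudogenes of EIF4A1 and a readthrough gene, SENP3-EIF4A1, over it, and 5 pseudogenes of EIF4A2, so the EIF4A1 peak is uncertain as to its source.

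The helicase cofactor EIF4B had a coding peak over exons 13 to 15 (13 and 14 in eIF3a 1) in every list but METTL16 2, of which the printed 120 bases were common to all 5. Peaks covered 210 bases in METTL16 1, 0 in METTL16 2, 420 in eIF3a 1, 1020 in eIF3a 2, 271 in eIF3b 1 and 330 in eIF3b 2. The fold of the coding peak never passed 2.00, yet its log10 p-value ran from -10.0 in eIF3a 1 to -171 in eIF3b 1. Peaks in the EIF4B 3′ UTR were present in eIF3a 1, eIF3a 2 and eIF3b 2 and not in METTL16 1 or eIF3b 1, and eIF3b 1 had a 61-base peak in exon 9.

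The second cofactor, EIF4H, carried 332 bases under peaks in METTL16 1, 782 in METTL16 2, 601 in eIF3a 1, 570 in eIF3a 2, 601 in eIF3b 1 and 724 in eIF3b 2. The METTL16 lists enclosed all 4 eIF3 lists, so the groups overlapped. A coding peak starting in exon 6 was present in all lists but eIF3a 2, at 1.32-fold to 1.71-fold, and the 122 shared bases lay in the 3′ UTR in exon 7. EIF4E, the cap-binding protein itself, had 1 peak, in eIF3a 1, of 150 bases over exons 6 and 7, at 2.37-fold. Its log10 p-value of -3.16 ranked EIF4E at place 7218 of the 8166 genes of that list. EIF4B has 9 annotated pseudogenes, EIF4E 5, EIF4H 2, EIF4EBP1 1 and EIF4EBP2 3, whereas GENCODE names none for the EIF4G genes.

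**Figure D3:**
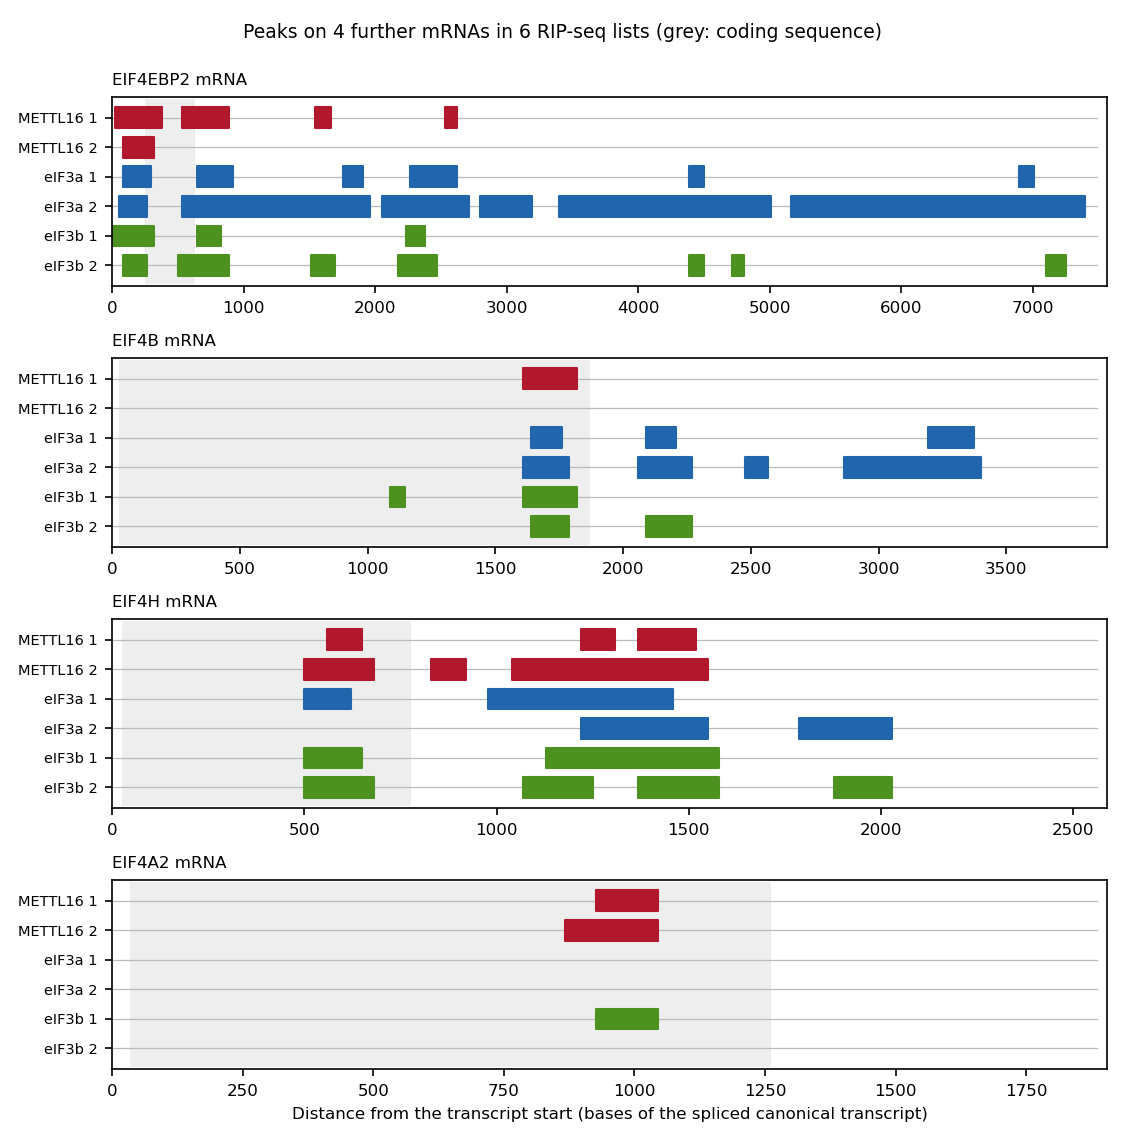
Peaks (coloured blocks) of the 6 RIP lists along the spliced canonical transcripts of EIF4EBP2, EIF4B, EIF4H and EIF4A2, with distance from the transcript start in bases on the x axis and the coding sequence in grey. The start of EIF4EBP2 is covered in all 6 lists, and EIF4A2 has a block in 3 lists at the same place.

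To ask whether the proteins differed on a member, bases under peaks were compared between the 2 lists of one protein and the 2 of another. A member was called separated where the groups did not overlap. An exact permutation test of 2 against 2 cannot give a two-sided p under 0.333, so no difference could pass a threshold, and every separated member had that exact p. METTL16 was above eIF3a on EIF4A2, with 150 ± 42.4 (SD, n = 2) against 0 bases, and on EIF4G2, with 661 ± 42.4 against 392 ± 170 bases. The same direction held for 12.8% of all genes. METTL16 was below eIF3a on EIF4B (105 ± 148 against 720 ± 424), EIF4G3 (240.5 ± 84.1 against 1499 ± 634) and EIF4EBP2 (584 ± 486 against 3890 ± 3760), though the EIF4EBP2 difference turned its sign on gene ranks. Without eIF3a 2 these differences, METTL16 minus eIF3a, were 149 in place of 269 bases for EIF4G2, -315 in place of -615 for EIF4B, -809.5 in place of -1258 for EIF4G3 and -647 in place of -3306 for EIF4EBP2. Without eIF3a 1 that of EIF4EBP2 was -5965. Of all genes 21.8% lay below in this way.

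METTL16 was above eIF3b on EIF4G2 alone (661 ± 42.4 against 481.5 ± 85.6, SD, n = 2), with the sign turned on gene ranks, where 4.86% of all genes were above. It was below eIF3b on EIF4B (105 ± 148 against 300.5 ± 41.7), EIF4G3 (240.5 ± 84.1 against 1980 ± 168) and EIF4G1 (2071 ± 82.0 against 2388 ± 275), the last turning its sign when bases were taken as a share of the list. The background for lying below was 36%. The EIF4B difference, -195.5 bases, was -90.5 without METTL16 2 and -300.5 without METTL16 1. That of EIF4G1, -316.5, was -122 without eIF3b 1 and -511 without eIF3b 2, and that of EIF4G2, 179.5, was 119 without eIF3b 1. eIF3a was above eIF3b on EIF4B (720 ± 424 against 300.5 ± 41.7), with the sign turned on the highest fold and on gene ranks, beside 6.13% of all genes, and below it on no member, beside 21.6%. The EIF4B difference of 419.5 bases fell to 119.5 without eIF3a 2 and was 719.5 without eIF3a 1. The numbers of separated members, 2 and 3, 1 and 3, and 1 and 0 of 10, stand beside these backgrounds with no test, and no difference particular to these mRNAs can be read from them. EIF4B and EIF4G3 lay below in both comparisons, which share the METTL16 lists. The EIF4B separation from eIF3b was lost on share of the list, highest fold, gene ranks and the 5000 smallest p-values. That of EIF4B from eIF3a was lost on highest fold and gene ranks. For EIF4G3 the separation from eIF3a was lost on highest fold and the 5000 smallest p-values, and that from eIF3b on none of these. For EIF4G2 it was lost on gene ranks and the 5000 smallest p-values, from eIF3a and from eIF3b alike. That of EIF4EBP2 from eIF3a was lost on share of the list, highest fold, gene ranks and the 5000 smallest p-values. EIF4G1 did not stay separated below eIF3b on any of these.

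Overlap of bases under member peaks was measured within and between proteins. The share of bases in either list that lay in both (the Jaccard index) was 0.390 for the METTL16 lists, 0.285 for eIF3a and 0.523 for eIF3b, while pairs of lists of different proteins ran from 0.175 for METTL16 2 with eIF3a 2 to 0.522 for eIF3a 1 with eIF3b 1. Of the bases of METTL16 1, 55.0% lay under peaks of METTL16 2, 64.8% and 82.4% under those of eIF3a 1 and 2 and 81.1% and 74.7% under those of eIF3b 1 and 2. These bases were 57.2%, 49.1%, 25.4%, 56.9% and 47.0% of those lists. Of the bases of METTL16 2, 70.1% and 65.3% lay under eIF3a 1 and 2 and 74.2% and 64.1% under eIF3b 1 and 2, which was 19.3% to 51.0% of the bases of those lists. No like overlap over all genes stands beside these values, so they cannot be called particular to these mRNAs.

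Fold enrichment on the members was low. The median over their 139 peaks was 1.96, beside 3.05 over all peaks, and the median for the members was the lower in each of the 6 lists, at 1.78 to 2.56 against 2.73 to 3.40. Peaks of at least 4-fold numbered 11, or 7.91%, beside 35.0% of all peaks, and 8 of the 11 were on EIF4EBP2. The others were the exon 1 peak of EIF4G2 in METTL16 2, the start codon peak of EIF4G3 in eIF3a 2 and the exon 10 peak of EIF4G1 in eIF3b 1.

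The p-values went the other way. Each member was placed by its highest fold and by its smallest p-value among the genes of its list. In 35 of 41 pairs of member and list the fold was below that of the middle gene, and in 33 the p-value was smaller than that of the middle gene. Both held in 27 pairs, or 65.9%, where 22.6% of all pairs of gene and list showed both. EIF4B had a fold above 1.45% to 11.2% of the genes in its 5 lists, with a p-value percentile of 71.0 to 97.2. EIF4G1 had a p-value percentile of 95.1 to 98.7 and a fold above 25.9% to 48.0% of the genes in each list. The levels of these mRNAs in the input were not analysed, so their part in this was not tested.

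**Figure D4:**
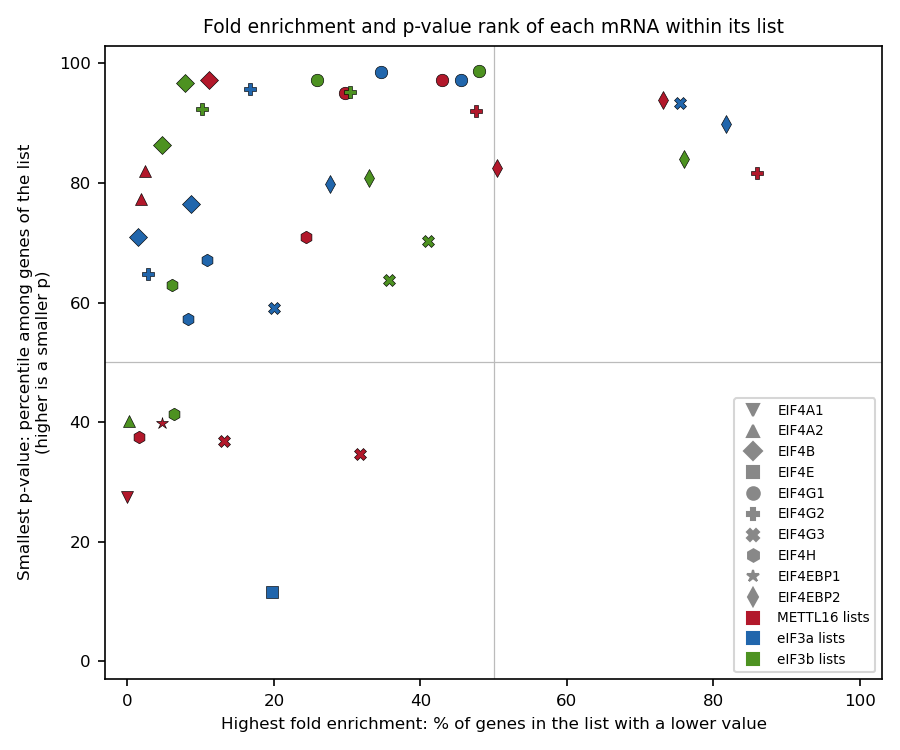
Each of the 41 pairs of mRNA and RIP list, placed by its highest fold enrichment (x axis, percent of genes in the list with a lower value) and by its smallest p-value (y axis, percentile among the genes of the list, higher for a smaller p). EIF4G1 points lie at 95.1 to 98.7 on the y axis and left of 50 on the x axis, and 27 points fall in the upper left field.

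Member peaks were mostly coding. Of 139 peaks, 85 were centred in the coding sequence, 14 in the 5′ UTR and 40 in the 3′ UTR. The 5′ UTR share was 10.1%, beside 3.30% to 8.44% of all peaks per list. The 3′ UTR share was 28.8%, beside 23.8% to 38.2%. The mean coding share per list was 61.6% ± 10.9 (SD, n = 6). All peaks had 59.6% when pooled and 56.3% to 68.1% per list. Single lists went both ways, with 76.0% against 60.4% in eIF3b 1 and 47.6% against 57.6% in eIF3a 2. Start codons lay under 9 member peaks, or 6.47%, beside 7.23% of all peaks, and stop codons under 14, or 10.1%, beside 8.06%. The members were thus near the background in mean coding share, start codons and stop codons. Their peaks were 61 to 2936 bases wide with a median of 210, beside 181 for all peaks. More than 1 exon was spanned by 80 of them, or 57.6%, beside 37.9% to 45.7% of all peaks per list.

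Base composition and a short motif were read from the peaks. Mean GC content of member peaks was 49.5% to 57.7% per list, below that of all peaks in each list (53.1% to 60.8%). ACAGAGA, found where METTL16 modifies U6 snRNA, was searched as those letters on the transcript strand alone. It lay in 1 member peak in METTL16 1, METTL16 2 and eIF3b 1, in 2 in eIF3a 1 and eIF3b 2 and in 3 in eIF3a 2, where 3.27% to 5.36% of all peaks and 2.45% to 3.46% of peaks of 180 to 240 bases held it. The single ACAGAGA of EIF4B, at transcript bases 1683 to 1689, lay under the coding peak of all 5 lists with a peak on this mRNA. That of EIF4H, at base 646, lay under a peak in METTL16 2 and eIF3b 2, and that of EIF4E, at base 536, in eIF3a 1. EIF4G1 and EIF4EBP2 had 1 each, under a peak in eIF3a 2 alone. Those of EIF4A2, EIF4G2 and EIF4G3 lay under no peak, and the EIF4A1 and EIF4EBP1 transcripts had none. A match of these letters is a description and not a site.

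A second list of 24 genes that work with these factors was counted in the same way. Peaks in both replicates were found on 13 of 24 for METTL16, 13 for eIF3a and 17 for eIF3b, beside 42.6%, 42.4% and 60% of all genes, and 10 carried a peak in all 6 lists, beside 25.2%. The 10 were EIF4E2, PABPC1, PABPC4, PDCD4, MKNK2, LARP1, GIGYF2, CTIF, MTOR and RPTOR, among which PABPC1 is the poly(A)-binding protein that eIF4G binds, PDCD4 an inhibitor of eIF4A, and MTOR and RPTOR parts of the kinase complex that acts on the 4E-BPs. PAIP2 and DDX3X carried no peak in any list, so they count among the 24 but not among the 10830 genes behind these shares. By presence over the 6 lists, EIF4A1 and EIF4EBP1 matched PAIP1, EIF4A2 matched CYFIP1, EIF4B matched EIF4ENIF1 and RPS6KB1, and EIF4E matched EIF4E3. These patterns were shared by 411, 168, 544 and 500 of the 10830 genes, so a match says little.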

How the data were processed

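RIP and input libraries were made from HepG2 cells after rRNA depletion with a KAPA Stranded kit. The study describes the 2 RIP samples per protein as biological replicates. The authors aligned reads with STAR (GRCh38) and used exomePeak, default settings, for peaks of each RIP sample over input. Versions, the gene annotation and whether a RIP sample was set against its own or pooled inputs are not given in the sources used here. For each peak the deposited lists give exon blocks, its gene, a p-value, log10 values of raw and adjusted p (taken as a score), and the fold enrichment, a ratio. These are the authors' values, used to describe, rank and filter peaks. No counts were used, so depth is unknown.

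Peaks were matched to members by name and placed on GENCODE 44 exons of GRCh38 (10766 of 10830 names matched), on the canonical transcript first. Coordinates count from 1. Bases under peaks were compared with exact permutation tests, two-sided. All 10 members are named, with a second list of 24 genes. The members and lists were chosen with earlier results of these data known. Scripts used Python 3.11.15, numpy 2.4.6 and pandas 2.3.3 and were tested on simulated peaks. Alternatives were peaks of at least 4-fold, the 5000 smallest p-values per list, other measures (share of list, highest fold, gene rank), other overlaps, a replicate block and leaving out lists.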

Additional observations from a re-analysis of the deposited data

How the results depend on the processing

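Of 65 alternative values of the 8 main results, 44 stayed within 1.5 times the reported count or, for the coding share, within 1 SD. The members behind a count could still change. By share of the list, METTL16 and eIF3b were separated on EIF4A2, EIF4G1, EIF4G2 and EIF4G3, with METTL16 lower on EIF4G3 alone, and eIF3a and eIF3b on EIF4H by highest fold and on EIF4B, with eIF3a lower, by gene rank. With peaks of at least 4-fold alone, members with a peak in both lists fell to 1 for METTL16 (EIF4EBP2), 0 for eIF3a and 0 for eIF3b. Those with bases shared by all 6 lists fell to 0, and separated members to 0 in each of the 3 comparisons. The coding share was then 16.7%, a mean without eIF3a 1 and eIF3b 2, which had no such member peak. It rested on 11 peaks. With the 5000 smallest p-values per list, 2 members (EIF4G1 and EIF4G2) shared bases in all 6 lists, and 2 were separated in each comparison. Between METTL16 and eIF3a, 2 members were separated by highest fold and 3 by gene rank, against 5.

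Leaving out 1 list gave 7 to 8 members for METTL16, 6 to 7 for eIF3a, 6 to 7 for eIF3b, 4 to 6 with bases shared by the remaining lists (6 without METTL16 2) and a coding share of 58.8% to 64.5%. Separated members numbered 6 to 8 for METTL16 and eIF3a (8 without METTL16 1), 4 to 9 for METTL16 and eIF3b (9 without METTL16 1) and 3 to 5 for eIF3a and eIF3b (5 without eIF3a 1, 4 without eIF3a 2, 4 without eIF3b 1 and 3 without eIF3b 2), since 1 list overlaps a pair less often.

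Deviations of same-numbered samples showed little correlation over genes (r of 0.00492, -0.0385 and -0.0423). Each protein had only 2 lists, and whether samples of the same number were handled together was not tested. With a replicate block, 6, 4 and 3 members were separated, against 5, 4 and 1.

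Of 100 alternatives for single members 6 reversed the sign. EIF4EBP2, METTL16 minus eIF3a, was 360 gene ranks. EIF4G1, METTL16 minus eIF3b, was 0.0220 percentage points of the list's bases and 90 bases within the 5000 peaks. EIF4G2, METTL16 minus eIF3b, was -327.5 gene ranks. EIF4B, eIF3a minus eIF3b, was -0.19 in highest fold and -1148.5 gene ranks. The cause was not tested. Unknown depth limits every absence of a peak.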
